A study of Arabidopsis thaliana with 4 samples.

Results

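The 4 genes described here were grouped as root and root-hair genes. They were EXPA7 (AT1G12560) and EXPA18 (AT1G62980), expansins of root hairs, PYK10 (AT3G09260), a beta-glucosidase best known from roots, and AT3G28550, an extensin-like gene. All 4 were chosen by name, with earlier results of these arrays known, to read the amount of root tissue in the samples. How well they mark root tissue, AT3G28550 above all, was not tested. Each had 1 probe set assigned to that gene alone, out of 13286 genes named in this way, and no probe set shared by several genes listed any of them. The samples were Arabidopsis thaliana seedlings 3 weeks old, hybridised to 4 single-channel Affymetrix arrays. One array held erf6-1 after 2 h of light at 2000 µmol m-2 s-1, and another untreated erf6-1. The other two held the Col-0 wild type after the same light and the untreated Col-0 wild type. erf6-1 is a mutant of the ethylene response factor gene ERF6 in the Col-0 background, and its transcript was not analysed here. The labels name the tissue as seedling and do not say whether roots were kept, how many plants were pooled, or under which light the untreated plants stood. A description in all 4 records refers to embryos and does not match the plant material.

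Root hairs are tubular outgrowths of single epidermal cells of the root. They extend at the tip, where expansins loosen the cell wall without cutting its polymers and extensins, structural glycoproteins rich in hydroxyproline, become part of the new wall. PYK10 is stored in ER bodies, spindle-shaped compartments of the endoplasmic reticulum, and when cells are damaged it cleaves glucosides into defensive products, held in complexes with jacalin-related lectins. The transcription factor NAI1 and the protein NAI2 are needed for ER bodies to form. No sequence of these genes is shown, since none was held in the files used.

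Values are MAS5 signals, a linear measure of probe set brightness scaled per array by the authors. The 2% trimmed mean was 493 to 495 in all 4 arrays, whereas the median was 207 and 321 in erf6-1 (high light and untreated) and 208 and 279 in the wild type (high light and untreated). With 1 array in each group there was no replicate check, so no difference carries a p-value or standard error, and precision is limited by how few arrays there are. A difference of at least 2-fold was used as a rule of size. Signals were raised to a floor of 100, the 30th percentile of all values, before log2 was taken, and a probe set was counted if it reached the pooled median of 248.6 in any array, as 17173 of 22746 did. All 4 genes passed this filter, PYK10 on each array and the other three on 3 of 4, and all 16 of their signals were above the floor. Signals of different probe sets depend on their probes and were not set against each other as transcript levels.

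EXPA7 had a higher signal in untreated plants than after high light in both genotypes. Its signal was 159.8 in erf6-1 after high light and 851.8 in untreated erf6-1. In the wild type it was 331.4 after high light and 625.5 untreated. The order from high to low was thus untreated erf6-1, untreated wild type, high-light wild type and high-light erf6-1. Neighbours in that order differed by 1.36-fold, 1.89-fold and 2.07-fold, so only the last step passed 2-fold. No spread between replicates is known against which to read these steps.

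EXPA18, the other root-hair expansin, did not follow the same order. Its signal was 101.8 in high-light erf6-1, just above the floor, and 442.0 in untreated erf6-1. In the wild type it was 403.5 after high light and 265.5 untreated. High-light erf6-1 was low, and the other 3 arrays lay within 1.66-fold of each other. Within an array, where scaling of the array cancels, the ratio of EXPA7 to EXPA18 signal was 1.57 in high-light erf6-1, 1.93 in untreated erf6-1, 0.821 in high-light wild type and 2.36 in untreated wild type. The 2 expansins therefore changed unequally, most of all between both wild-type arrays.

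PYK10 had a high signal in all 4 arrays, between rank 70 and rank 128 of 22746 probe sets from the top. Its signal was 18297 in high-light erf6-1 and 21338 in untreated erf6-1, against 15881 in high-light wild type and 28679 in untreated wild type. The highest array exceeded the lowest by 1.81-fold, and no 2 of the arrays were 2-fold apart. Over the 17173 probe sets past the filter, 17.0% had a smaller span between their highest and lowest array than PYK10, and the median span was 1.61 on the log2 scale against 0.85 for PYK10. Most of these probe sets are dimmer than PYK10, and no span was taken over probe sets of like signal alone.

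AT3G28550 stood high in 1 array alone. Its signal was 160.2 in high-light erf6-1 and 449.4 in untreated erf6-1. In the wild type it was 296.7 after high light and 7038 untreated. Untreated wild type was 15.7-fold above the next array, whereas neighbours among the other 3 arrays differed by 1.51-fold and 1.85-fold. The span between its highest and lowest array, 5.46 on the log2 scale, was larger than that of 99.9% of probe sets past the filter.

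**Figure D1:**
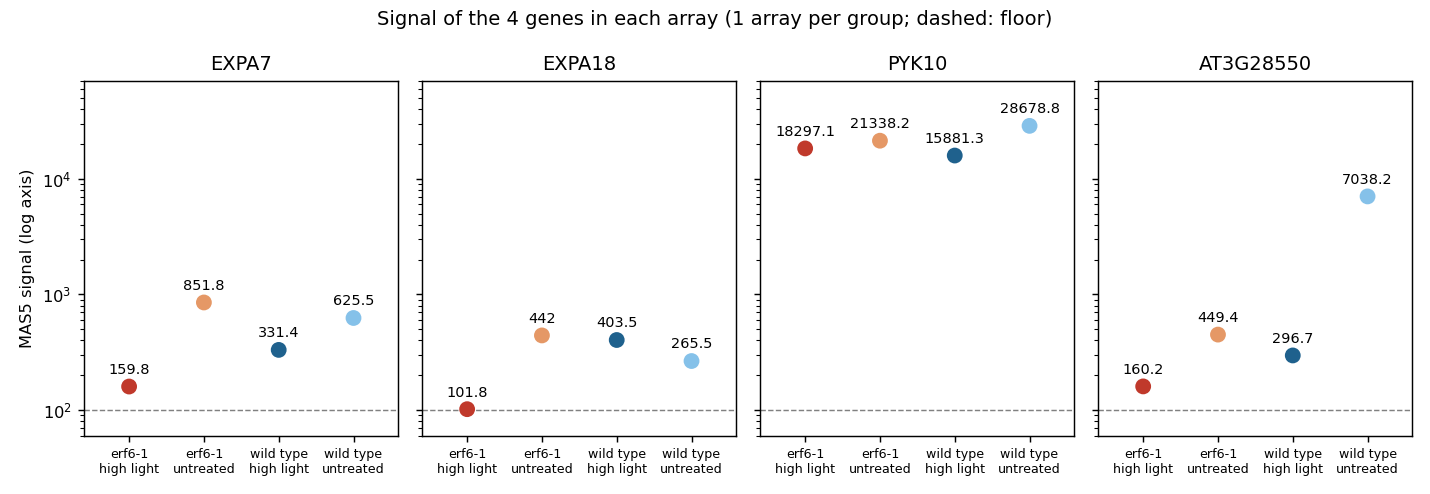
MAS5 signal (log axis) of each of the 4 genes in the 4 arrays, 1 point per array, with the floor of 100 as a dashed line. PYK10 lies between 15881 and 28679 throughout, AT3G28550 is at 7038 in untreated wild type and at or below 449.4 elsewhere, and both expansins are lowest in high-light erf6-1.

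A signal this far above all other arrays was rare, by a limit of 8-fold that was chosen after the values were seen. Of the 17173 probe sets, 4 were at least 8-fold higher in untreated wild type than in each other array, values under the floor being raised to it, and AT3G28550 had the largest such ratio of the 4. Of the others, chosen after their values were seen, AT1G53260 had a signal of 2133.5 in untreated wild type and at most 183.2 elsewhere. AT3G57970 had 849.9 there and lay under the floor elsewhere, and the remaining probe set has no gene name here. The same count was 0 for high-light erf6-1, 13 for untreated erf6-1 and 3 for high-light wild type. Most of the ratios in untreated erf6-1 were bounds, with the other arrays under the floor. In high-light wild type a probe set with no gene name here, picked after its values were seen, had a larger ratio than AT3G28550, at 71.4-fold.

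Both expansins were at least 2-fold lower after high light in erf6-1. EXPA7 was 5.33-fold lower after high light, a log2 difference of -2.41. EXPA18 was 4.34-fold lower, at -2.12, which was -1.48 with equal medians. AT3G28550 was 2.81-fold lower, at -1.49, but with each array set to the same median it was at -0.85 and after quantile normalisation at -0.92, short of 2-fold. PYK10 was at -0.22, and at 0.41 with equal medians, so its direction depended on scaling. Thus 3 of 4 genes were at least 2-fold lower, in a comparison in which 29.8% of all probe sets past the filter were lower by that much and 16.7% higher. Nothing is read from that count, since the genes were picked with these values known. In bulk tissue, fewer cells of a type and less RNA per cell cannot be told apart.

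High light against untreated wild type showed a large difference for AT3G28550 alone. It was 23.7-fold lower after high light, a log2 difference of -4.57, and it was the lowest of the 6593 named probe sets with both signals above the floor. EXPA7 was 1.89-fold lower, at -0.92, and PYK10 1.81-fold lower, at -0.85. EXPA18 was 1.52-fold higher, at 0.60, and at 1.03 with equal medians, which passes 2-fold. As deposited, 1 of 4 genes was at least 2-fold lower and none higher, beside 23.9% lower and 14.3% higher over all probe sets past the filter. Both light comparisons were shifted as a whole by the scaling: over all probe sets past the filter the deposited values had a median of -0.22 in erf6-1 and of -0.13 in the wild type, against 0.33 and 0.17 with equal medians and 0 after quantile normalisation. Relative to the deposited medians, EXPA7 was at -2.19 in erf6-1 and -0.79 in the wild type, EXPA18 at -1.90 and 0.73, PYK10 at 0.00 and -0.73, and AT3G28550 at -1.27 and -4.44.

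erf6-1 against wild type after high light gave lower values of the expansins in the mutant. EXPA18 was 3.96-fold lower in erf6-1, at -1.99, and 13 of the 6636 named probe sets with both signals above the floor were lower still. EXPA7 was 2.07-fold lower, at -1.05, and at -0.98 with a pseudocount of 16 in place of the floor, just short of 2-fold. AT3G28550 was 1.85-fold lower, at -0.89, and PYK10 1.15-fold higher, at 0.20. Of all probe sets past the filter, 6.99% were lower in high-light erf6-1 by 2-fold or more and 6.61% higher.

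erf6-1 against wild type without treatment differed past 2-fold for AT3G28550 only, which was 15.7-fold lower in the mutant, a log2 difference of -3.97. Both expansins lay on the higher side in erf6-1, EXPA7 at 0.45 and EXPA18 at 0.74, and PYK10 was at -0.43, or -0.03 after quantile normalisation. Over all probe sets past the filter, 19.6% were at least 2-fold lower and 23.7% higher in untreated erf6-1. This comparison and the wild-type light comparison share the untreated wild-type array, which is the array that sets AT3G28550 apart, so they are not separate observations of it. The same holds for the expansins and the high-light erf6-1 array, which is part of both comparisons where they were 2-fold lower.

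**Figure D2:**
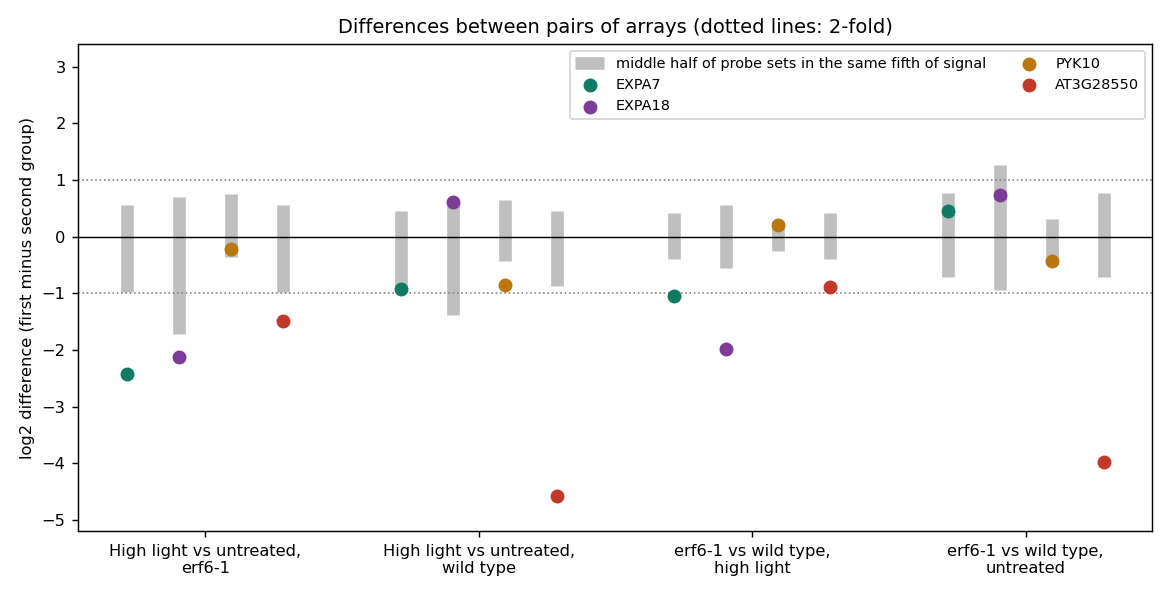
log2 difference of each of the 4 genes (points) in the 4 pairs of arrays, first group minus second. Grey bars give the interquartile range of all probe sets in the same signal class, and dotted lines mark 2-fold. AT3G28550 is at -4.57 and -3.97 in the pairs that hold untreated wild type, and EXPA7 and EXPA18 are at -2.41 and -2.12 for high light in erf6-1.

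The signal level of a probe set bears on how often it differs by 2-fold. Probe sets were ordered by mean log2 signal and divided into 5 equal classes. PYK10 lay in the brightest class, EXPA7 and AT3G28550 in the one below, and EXPA18 in the middle class. For high light against untreated erf6-1, 24.1% of the class of EXPA7 and 42.9% of the class of EXPA18 were at least 2-fold lower. For high-light erf6-1 against high-light wild type these shares were 6.40% and 12.4%. Between both untreated arrays, 37.3% of the class of EXPA7 and AT3G28550 differed by 2-fold in either direction, against 12.4% between both high-light arrays. In the class of PYK10, 11.7% differed by 2-fold between the untreated arrays and 2.97% between the high-light arrays.

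Other genes of root hairs were taken from a list of 43 further loci, of which 7 had a named probe set and all 7 passed the filter. Of these, AT2G14760 and AT1G26250 reached the filter through untreated erf6-1 alone, so they had to be high there, and the counts are given over the other 5, beside the shares over all 12308 probe sets that reached the filter on 2 or more arrays. In erf6-1, 2 of 5 were at least 2-fold lower after high light and none higher, with a median of -0.36, beside shares of 22.1% and 19.6%. Over all 7 the median was -1.33. It was -0.21 with equal medians and -0.48 after quantile normalisation, but the filter was then applied anew to the rescaled signals. Not all of the 7 passed it, so these values do not show scaling alone. In the wild type, 2 of 5 were lower and 1 higher after high light, beside 20.9% and 16.3%, with a median of -0.45 that was 0.55 over the 3 bright genes of the list. High-light erf6-1 against high-light wild type had 1 of 5 lower and none higher, beside 6.55% and 6.17%, with a median of -0.54. Over all 7 the median was also -0.54. Over the fewer genes that passed after rescaling, it was -0.27 with equal medians and -0.25 after quantile normalisation. The untreated comparison had 1 of 5 lower and none higher in erf6-1, beside 15.7% and 14.7%, with a median of 0.34. Over all 7 it was 0.59, and over the fewer genes that passed with equal medians 0.27. The summed signal over all 7 was 2322 in high-light erf6-1 and 4228 in untreated erf6-1. In the wild type it was 3718 after high light and 4072 untreated. This sum includes AT2G14760 and AT1G26250, which had to be high in untreated erf6-1. High-light erf6-1 was the lowest array for this sum, as it was for EXPA7 and EXPA18. Among the single genes it was the lowest array for AT5G06630, AT4G08410 and AT1G26250, and not for the others.

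Single genes of that list went different ways. The 4 with the highest mean signal were AT5G06630, AT1G30870, AT4G26010 and AT4G08410. AT5G06630 had signals of 556.4 and 1395.8 in erf6-1 (high light and untreated), and 807.1 and 1102.5 in the wild type (high light and untreated), the order of EXPA7. AT4G26010 had 547.0 and 694.3 in erf6-1, and 1228.2 and 356.6 in the wild type, and was 3.44-fold higher after high light in the wild type. AT4G08410 had 372.5 and 476.6 in erf6-1, and 381.0 and 1320.3 in the wild type, so that untreated wild type alone was high, as for AT3G28550 but by 2.77-fold over the next array. AT1G30870 stayed within 2-fold in every pair of arrays compared, from -0.75 to 0.55. The probe sets of AT5G06630 and AT4G08410 carry a suffix that marks possible binding of related sequences, and their values are uncertain for that reason.

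Genes of other root cell types and of root transport had named probe sets for 4 of 35 loci. After high light 1 was at least 2-fold higher and 1 lower in erf6-1, with a median of -0.41 that was 0.23 with equal medians, and 1 was higher and none lower in the wild type, with a median of 0.03. After high light, no gene was 2-fold apart between the genotypes, and the median was -0.11. Without treatment, 2 were higher and 1 lower in erf6-1, with a median of 0.78. All 4 reached the filter on 2 or more arrays. Over all such probe sets, 22.1% were lower and 19.6% higher after high light in erf6-1, and 20.9% and 16.3% in the wild type. For erf6-1 against wild type the shares were 6.55% and 6.17% after high light, and 15.7% and 14.7% without treatment. AT1G09750 had a signal of 516.8 in high-light erf6-1 and 1610.0 in untreated erf6-1, against 522.0 and 697.7 in wild type (high light and untreated). AT5G17820 had 692.9 and 1147.8 in erf6-1, and 895.4 and 293.2 in the wild type. AT3G01190 lay between 429.9 and 601.3 in all 4 arrays. AT1G62500 was under the floor in untreated erf6-1, at 19.1, and between 193.3 and 361.6 elsewhere. The summed signal of the 4 genes was 2079 in high-light erf6-1 and 3329 in untreated erf6-1, against 2212 in high-light wild type and 1782 in untreated wild type. No gene of the root lists had a signal of 0.

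Genes linked to ER bodies or to PYK10 complexes had named probe sets for 4 of 13 further loci. JAL34, a jacalin-related lectin, had a signal of 4629 in high-light erf6-1 and 4873 in untreated erf6-1, against 5768 in high-light wild type and 5873 in untreated wild type. JAL33, another lectin of that family, ranged from 2717 to 3960. NAI2 ranged from 793.9 to 1343.4. These 3 genes, like PYK10, showed no 2-fold difference in any of the 4 comparisons. In the brightest signal class, 24.5% of probe sets differed by 2-fold after high light in erf6-1 and 22.3% in the wild type. Between genotypes 2.97% did after high light and 11.7% untreated. In each comparison most bright probe sets thus stayed within 2-fold as well. NAI1 was an exception, with a signal of 77.4 in untreated erf6-1, under the floor, and 405.6 to 531.1 in the other arrays. Its fold is therefore a bound, at least 4.06-fold higher in high-light than in untreated erf6-1 and at least 5.31-fold lower in untreated erf6-1 than in untreated wild type. Over all probe sets that reached the filter on 2 or more arrays, 19.6% and 15.7% differed by 2-fold in these directions. The medians of the list after high light were -0.06 in erf6-1 and -0.19 in the wild type, and both turned with equal medians, to 0.57 and 0.24. Between genotypes they were -0.09 after high light and -0.38 untreated.

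Nuclear photosynthesis genes, which mark green tissue, had named probe sets for 5 of 26 loci and bright signals in all arrays. Their summed signal was 107664 in high-light erf6-1 and 146516 in untreated erf6-1, against 97907 in high-light wild type and 219958 in untreated wild type. The order of the 4 arrays was the same as that of PYK10. RCA, the activase of RuBisCO, had 32887 in high-light erf6-1 and 40655 in untreated erf6-1, against 37117 in high-light wild type and 58919 in untreated wild type. PSAE-1, a subunit of photosystem I, PSBW, a subunit of photosystem II, and LHCB4.1, an antenna protein, ranged from 24088 to 54415, from 10835 to 64266 and from 12610 to 20771. After high light 3 of 5 were at least 2-fold lower in the wild type, beside 20.9% over the probe sets that reached the filter on 2 or more arrays, with a median of -1.12 that was -0.70 with equal medians and -0.63 after quantile normalisation. In erf6-1 1 was lower, beside 22.1%, with a median of -0.31 that was 0.33 with equal medians. Between genotypes none differed by 2-fold. The shares there were 6.55% lower and 6.17% higher after high light, and 15.7% and 14.7% without treatment.

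The log2 signal of PYK10 minus the mean log2 signal of these leaf genes, a quantity that scaling of an array does not move, was -0.11 in high-light erf6-1 and -0.27 in untreated erf6-1, against -0.12 in high-light wild type and -0.45 in untreated wild type. It varied by 0.34 over the 4 arrays. The same quantity for EXPA7 was -6.95 in high-light erf6-1 and -4.92 in untreated erf6-1, against -5.70 in high-light wild type and -5.97 in untreated wild type. For EXPA18 it was -7.60 and -5.87 in erf6-1 (high light and untreated), and -5.42 and -7.21 in the wild type (high light and untreated). The root-hair expansins and PYK10 therefore gave different readings of root against leaf signal in the same arrays, and the part of tissue make-up in any of these differences was not tested.

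**Figure D3:**
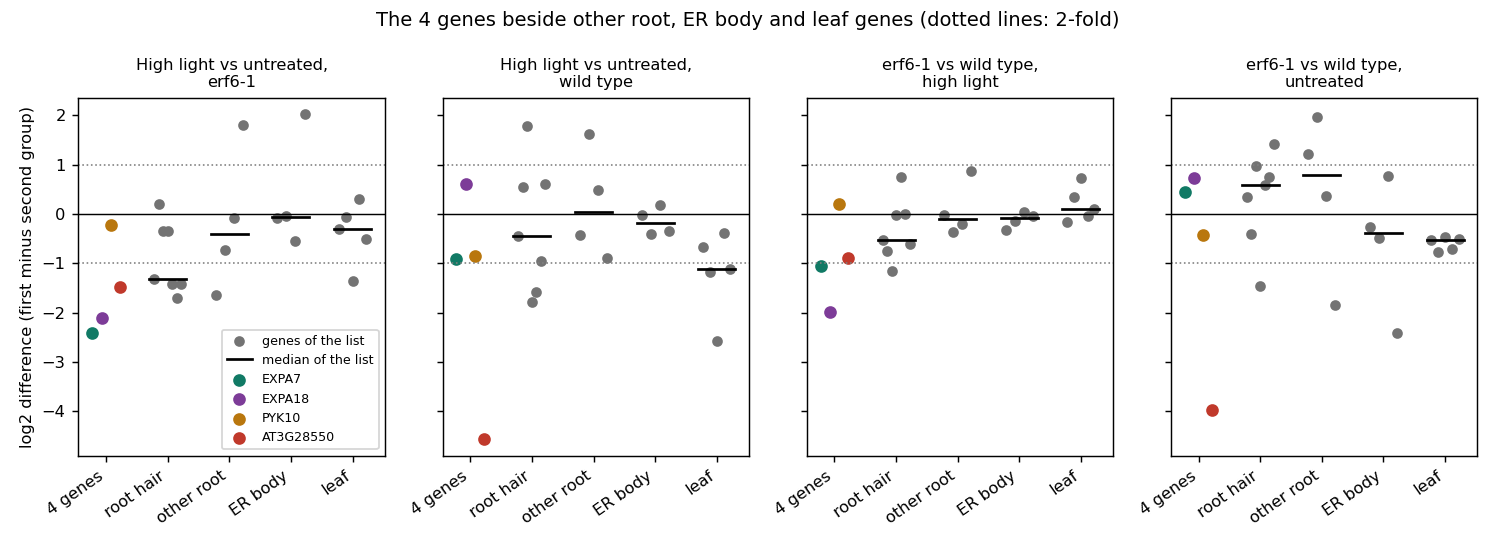
log2 differences in the 4 pairs of arrays for the 4 genes (coloured points) and for other root hair, other root, ER body and leaf photosynthesis genes (grey points, with the median of each list as a bar). Values with a signal under the floor are bounds. For high light in erf6-1 EXPA7 and EXPA18 are at -2.41 and -2.12 and the 7 other root hair genes between -1.70, a bound, and 0.21, and AT3G28550 is the lowest plotted point in both pairs that hold untreated wild type.

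Within their own families the genes can be set beside paralogues. Of 16 other expansin genes with a named probe set, 13 passed the filter, 4 of them through 1 array alone, and counts are given over the other 9. After high light 2 of 9 were at least 2-fold lower and none higher in erf6-1, beside 22.1% and 19.6% of all probe sets that reached the filter on 2 or more arrays. The median over all 13 there was -0.63. With equal medians it was 0.04, but the filter was then applied anew to the rescaled signals and not all of the 13 passed. The same holds for each expansin median below with equal medians or after quantile normalisation. In the wild type 6 of 9 were lower and 1 higher, beside 20.9% and 16.3%, with a median of -1.03. The median over all 13 was also -1.03, and the values with equal medians and after quantile normalisation were -0.61 and -0.85. EXPA8 had a signal of 132.6 in high-light erf6-1 and 1050.5 in untreated erf6-1, against 260.6 in high-light wild type and 2092 in untreated wild type. EXPB3, of the beta-expansins, was at -1.62 in erf6-1 and -1.67 in the wild type after high light, EXPA15 at -0.67 and -1.12, and EXPA16 at 0.49 and 1.11. Between the high-light arrays none of the 9 differed by 2-fold. The median over all 13 in that comparison was -0.11, but -0.45 with a floor at the 20th percentile and -0.55 with the pseudocount. Over the fewer genes that passed after rescaling, the median was -0.56 with equal medians and -0.52 after quantile normalisation, which does not show scaling alone. EXPA7 and EXPA18 were at -1.05 and -1.99. Without treatment 3 of 9 were lower and none higher in erf6-1, beside 15.7% and 14.7%. The median over all 13 was -0.25, and EXPA7 and EXPA18 were at 0.45 and 0.74. Over the fewer genes that passed after rescaling, the median was -0.79 with equal medians and -0.77 after quantile normalisation.

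Of 20 other beta-glucosidase genes with a named probe set, 17 passed the filter, 6 of them through 1 array alone, and counts are given over the other 11. After high light 4 of 11 were at least 2-fold lower and 1 higher in erf6-1, and 3 were lower and 2 higher in the wild type. Over all probe sets that reached the filter on 2 or more arrays the shares were 22.1% and 19.6% in erf6-1, and 20.9% and 16.3% in the wild type. The median in the wild type was -0.71, and turned to 1.20 over the 2 bright genes of the family. Between genotypes 1 of 11 was lower and 2 higher after high light, beside shares of 6.55% and 6.17%. Without treatment 1 was lower and 1 higher, beside 15.7% and 14.7%. BGLU40 had a signal of 1912 in high-light erf6-1 and 1499 in untreated erf6-1, against 1202 in high-light wild type and 1084 in untreated wild type. BGLU16 had a signal of 218.0 in untreated wild type, against 1037.5 to 1226.4 in the other arrays, whereas PYK10 was highest in untreated wild type. BGLU46 and BGLU44 were within 2-fold after high light in both genotypes, and BGLU46 was at 1.57 in high-light erf6-1 against high-light wild type.

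The genes whose profile over the 4 arrays was most like that of each of the 4 were found by the root mean square distance between log2 signals centred on their mean over the arrays, among 5329 other named nuclear probe sets above the floor on all arrays. With 4 arrays, many genes can be close by this measure. The distance is not scaled for the span of a profile. A gene with a small span, such as PYK10, can therefore have many near genes, and one with a large span, such as AT3G28550, few. EXPA7 had 406 within a distance of 0.5, and the nearest were AT4G33480 at 0.090, AT5G12980, AT5G15050, AT1G62680 and GH9B8 at 0.135. EXPA18 had 147, led by AT1G49975 at 0.114, then AT5G23590, AT4G35380, AT2G36885 and AT5G63480 at 0.224. PYK10 had 2498, with AT5G09770 at 0.025, AT1G19110, AT5G11070, AT2G25870 and AT3G26085 at 0.041. AT3G28550 had none within 0.5. Its nearest were AT5G59170 at 0.895, iqd21 at 0.979, AT4G16980 at 1.04, EXPA8 at 1.05 and AT3G06750 at 1.10. AT5G59170 had a signal of 560.7 in high-light erf6-1 and 1439.9 in untreated erf6-1, against 385.2 in high-light wild type and 5617 in untreated wild type.

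None of the 4 root and root-hair genes was among the 5 nearest of another. EXPA7 and EXPA18 were 0.571 apart, less than the median distance of 0.947 from EXPA7 and 0.933 from EXPA18 to all probe sets compared, with 625 probe sets nearer to EXPA7 than EXPA18 was and 289 nearer to EXPA18 than EXPA7 was. PYK10 was 0.781 from EXPA7 and 0.884 from EXPA18. AT3G28550 was 1.70 from EXPA7, 2.05 from EXPA18 and 1.81 from PYK10. The expansins shared their highest array, untreated erf6-1, and their lowest, high-light erf6-1, whereas PYK10 and AT3G28550 were both highest in untreated wild type.

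**Figure D4:**
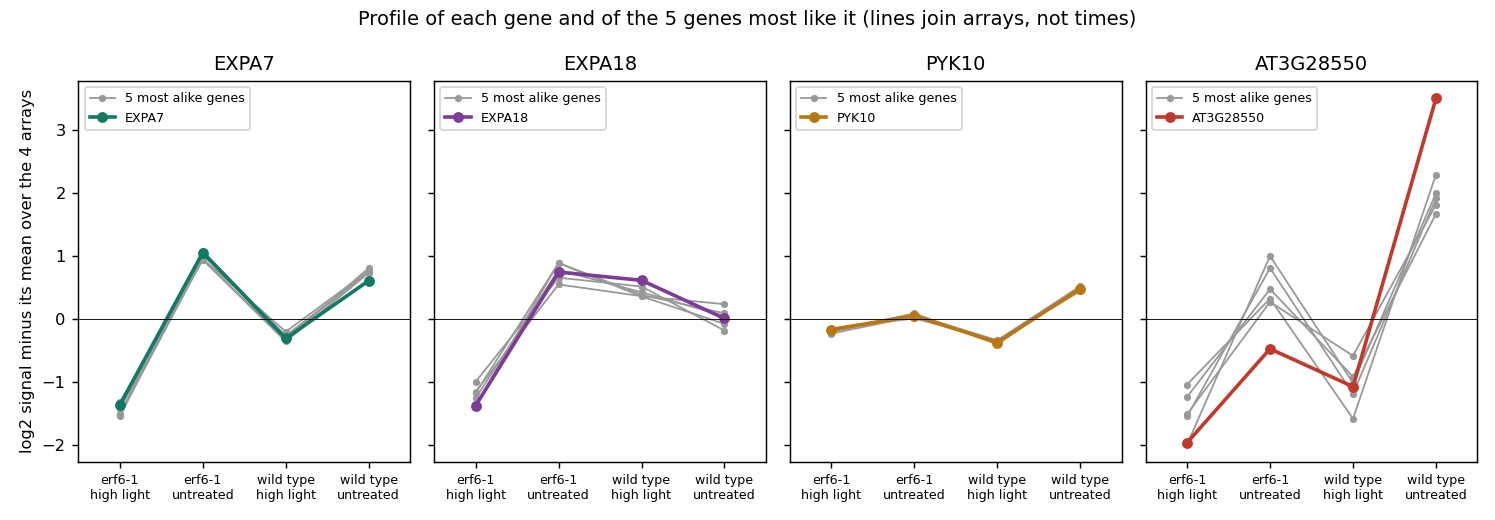
log2 signal minus its mean over the 4 arrays, for each of the 4 genes (coloured line) and the 5 genes most like it (grey lines); lines join arrays and not times. EXPA7 and PYK10 are closely matched by their nearest genes, whereas AT3G28550 lies 0.895 or more from each of its own. Distances are not scaled for the span of a profile.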

How the data were processed

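The authors scaled each array with MAS5, per the submitters' processing notes, and deposited linear signal intensity values; the version and settings are not given in the sources used here. The files hold 1 table of 4 arrays, grouped by sample title. Of 22746 probe sets, 13513 were listed with 1 gene, 503 with several and 8730 not at all. Through the RefSeq gene table (TAIR10.1), 13436 were named.

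Intensity values were floored at 100, put on the log2 scale and compared between arrays with Python 3.11.15, pandas 2.3.3 and numpy 2.4.6. No test was made: with 1 array per group, an additive model of genotype and light has 1 residual degree of freedom and counts unequal responses as error. The calculation was tested on simulated arrays. Genes, lists and alternatives were chosen with earlier results of these data known. The named genes were the 4 members, up to 4 genes of each list or family with the highest mean log2 signal, and the 5 genes nearest to each member in profile; a few others are said to be chosen after their values were seen. Counts of list genes that reached the filter on 2 or more arrays were added after seeing the data. A planned family, genes whose annotation mentions extensin, had 0 probe sets, since the table gives no descriptions. Alternatives were equal medians, quantile normalisation, a floor at the 20th percentile (55.6), a pseudocount of 16 and other brightness filters. Neither scanner files nor detection calls were used.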

Additional observations from a re-analysis of the deposited data

Results flagged for a closer look

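Effects under the same contrast ran in opposite directions for 3 of the 4 genes. With 1 array per group these differences were not tested, and each adds the errors of 4 arrays. For EXPA18, erf6-1 was lower than wild type after high light and higher without treatment, and high light went with a lower signal in erf6-1 and a higher one in the wild type. Its light response in erf6-1 minus that in the wild type was -2.72 on the log2 scale, from -2.12 and 0.60. For EXPA7 the genotype difference was -1.05 after high light and 0.45 without treatment, and the difference between light responses was -1.50. For PYK10 the genotype difference was 0.20 after high light and -0.43 without treatment, both within 2-fold, and -0.03 without treatment after quantile normalisation; the difference between light responses was 0.63.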

How the results depend on the processing

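Of 64 alternative values of the members' differences, 60 kept their side of 2-fold. AT3G28550 for high light in erf6-1 was at -0.85 with equal medians and -0.92 after quantile normalisation, EXPA18 for high light in the wild type at 1.03 with equal medians, and EXPA7 for high-light erf6-1 against wild type at -0.98 with the pseudocount. The direction of PYK10 for high light in erf6-1 turned with equal medians, to 0.41. Of 164 alternative list medians, 151 kept their side of 2-fold, a count in which a turn of direction within 2-fold passes as kept. The direction turned in 11 of the 164, over 9 results. Beta-glucosidases turned between untreated arrays, from 0.12 to -0.05 with equal medians and -0.02 after quantile normalisation. For high light in erf6-1 they turned from -0.03 to 0.22 with equal medians and with bright genes only. Equal medians and quantile normalisation put the root hair list for high light in erf6-1 at -0.21 and -0.48, leaf genes in the wild type at -0.70 and -0.63, and expansins in the wild type at -0.61 and -0.85, the last at -0.80 without the filter. The filter was applied anew after either rescaling, so the genes counted can differ. Fewer root hair genes and expansins then passed, and their values do not show scaling alone. With bright genes only, which left 2 or 3 of each list concerned, the root hair list in erf6-1 was at -0.34, and in the wild type it turned to 0.55, other root genes at -1.18 in erf6-1 and at 1.59 between untreated arrays, and beta-glucosidases at 1.20 for high light in the wild type, where the direction turned, and at 1.44 between untreated arrays. With list genes that reached the filter on 2 or more arrays, chosen after seeing the data, the root hair list for high light in erf6-1 was at -0.36. No expansin was bright, so the bright filter gave that family no value. No probe set with several genes held a member, so that alternative gave no value. No paired analysis was possible because the groups share fewer than 2 replicate numbers, with 1 array in each. EXPA18 in high-light erf6-1 lay just above the floor, where signals are dim.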
